A study of Danio rerio with 24 samples.

Results

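The genes described here are 9 transcription factor genes known for their roles in the anterior neural plate of the zebrafish: fezf2, rx3, six3b, otx2b, emx3, her5, foxb1a, sox3 and meis2b. They were picked by name out of 32521 rows of an expression table, and each name matched 1 row. The choice included genes already seen to differ strongly between groups of the second set of libraries, so their differences there are given as descriptions without a test. They were tested only in the first set, whose groups played no named part in the choice. Earlier results of these data were known when the choice was made, so the first-set tests may not be free of it.

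The study measured poly(A) RNA of zebrafish embryos 6 hours after injection of RfxCas13d (Cas13d), a nuclease that guide RNAs direct to a matching RNA and that leaves the genome unaltered. Its 24 libraries form 12 groups of 2 replicates, and all embryos were injected, where they were injected, as single cells. The first set of 6 groups used transgenic embryos whose mothers supplied RFP. These were left uninjected, or received 200 to 250 pg of Cas13d mRNA alone, with guides (500 to 600 pg) against nanog or against rfp, with a reporter, or with both a reporter and guides against dnd. This reporter was 40 pg of gfp mRNA carrying the nanos 3′ untranslated region. The second set of 6 groups is labelled without a transgene. Its embryos received Cas13d mRNA or 3 ng of Cas13d protein, each with or without szrd1 guides, or that protein together with the reporter, either without guides or with guides against dnd1. Doses were those of the first set, except that the protein dose of 1 replicate with dnd1 guides is unclear in its label. No uninjected group was analysed in the second set. Strain, clutch and the number of embryos per library are not stated in the labels, so p-values measure the spread between 2 libraries per group, which may be partly technical.

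The neural plate is the sheet of ectoderm that becomes the brain and spinal cord. It forms during gastrulation where signals from the dorsal organizer keep BMP activity low, and its front end stays anterior where Wnt, FGF and retinoic acid signals are weak. Sets of homeobox and related factors then mark the eye field, the forebrain, the midbrain and the boundary between midbrain and hindbrain.

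By role, rx3 (ENSDARG00000052893) is a homeobox gene required for the eye field, and six3b (ENSDARG00000054879) is a homeobox gene of the forebrain and eye field. The gene fezf2 (ENSDARG00000070677) encodes a zinc finger repressor of the forebrain, emx3 (ENSDARG00000020417) is a homeobox gene of the telencephalon, and otx2b (ENSDARG00000011235) is a homeobox gene of forebrain and midbrain. The boundary between midbrain and hindbrain is represented by her5 (ENSDARG00000008796), a basic helix-loop-helix repressor that is also active in early endoderm. Broader neural genes are sox3 (ENSDARG00000053569), a SoxB1 factor first found across the early ectoderm, foxb1a (ENSDARG00000089042), a forkhead factor, and meis2b (ENSDARG00000077840), a homeobox partner of Hox and Pbx proteins.

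Values are in TPM, a unit that divides reads by transcript length and makes each library sum to the same total. A TPM value is a share of a library's RNA, so in whole embryos fewer expressing cells and less RNA per cell cannot be told apart. Each targeted gene was at 11.7% to 19.8% of its control in the 6 groups with guides. An RFP transcript stood at 18.5 and 27.1 TPM in the pair of libraries given Cas13d protein, reporter and guides to dnd1, whereas the other second-set libraries held 0 to 0.18 TPM, although no transgene is named in the labels of any of them. Genes at 1 TPM or more numbered 13927 to 15757 per library.

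The 9 genes did not share a pattern. In the 12 libraries of the first set, 4 of them stayed at or below 1.59 TPM in every library. There fezf2 ranged from 0.04 to 0.39 TPM with a median of 0.13, rx3 from 0 to 0.77 TPM with a median of 0.1, and meis2b from 0.04 to 0.41 TPM with a median of 0.1. The level of otx2b was 0.15 to 1.59 TPM with a median of 0.51. The homeobox genes emx3 and six3b were also low in the first set, where emx3 ranged from 0.39 to 1.73 TPM and six3b from 0.44 to 4.04 TPM. The 3 abundant genes there were foxb1a at 5.96 to 39.6 TPM, her5 at 4.21 to 172 TPM and sox3 at 92.1 to 513 TPM. Thus at 6 hours the name anterior neural plate describes where these genes are known to act, and not a territory that the first set shows through fezf2, rx3 or otx2b.

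**Figure D1:**
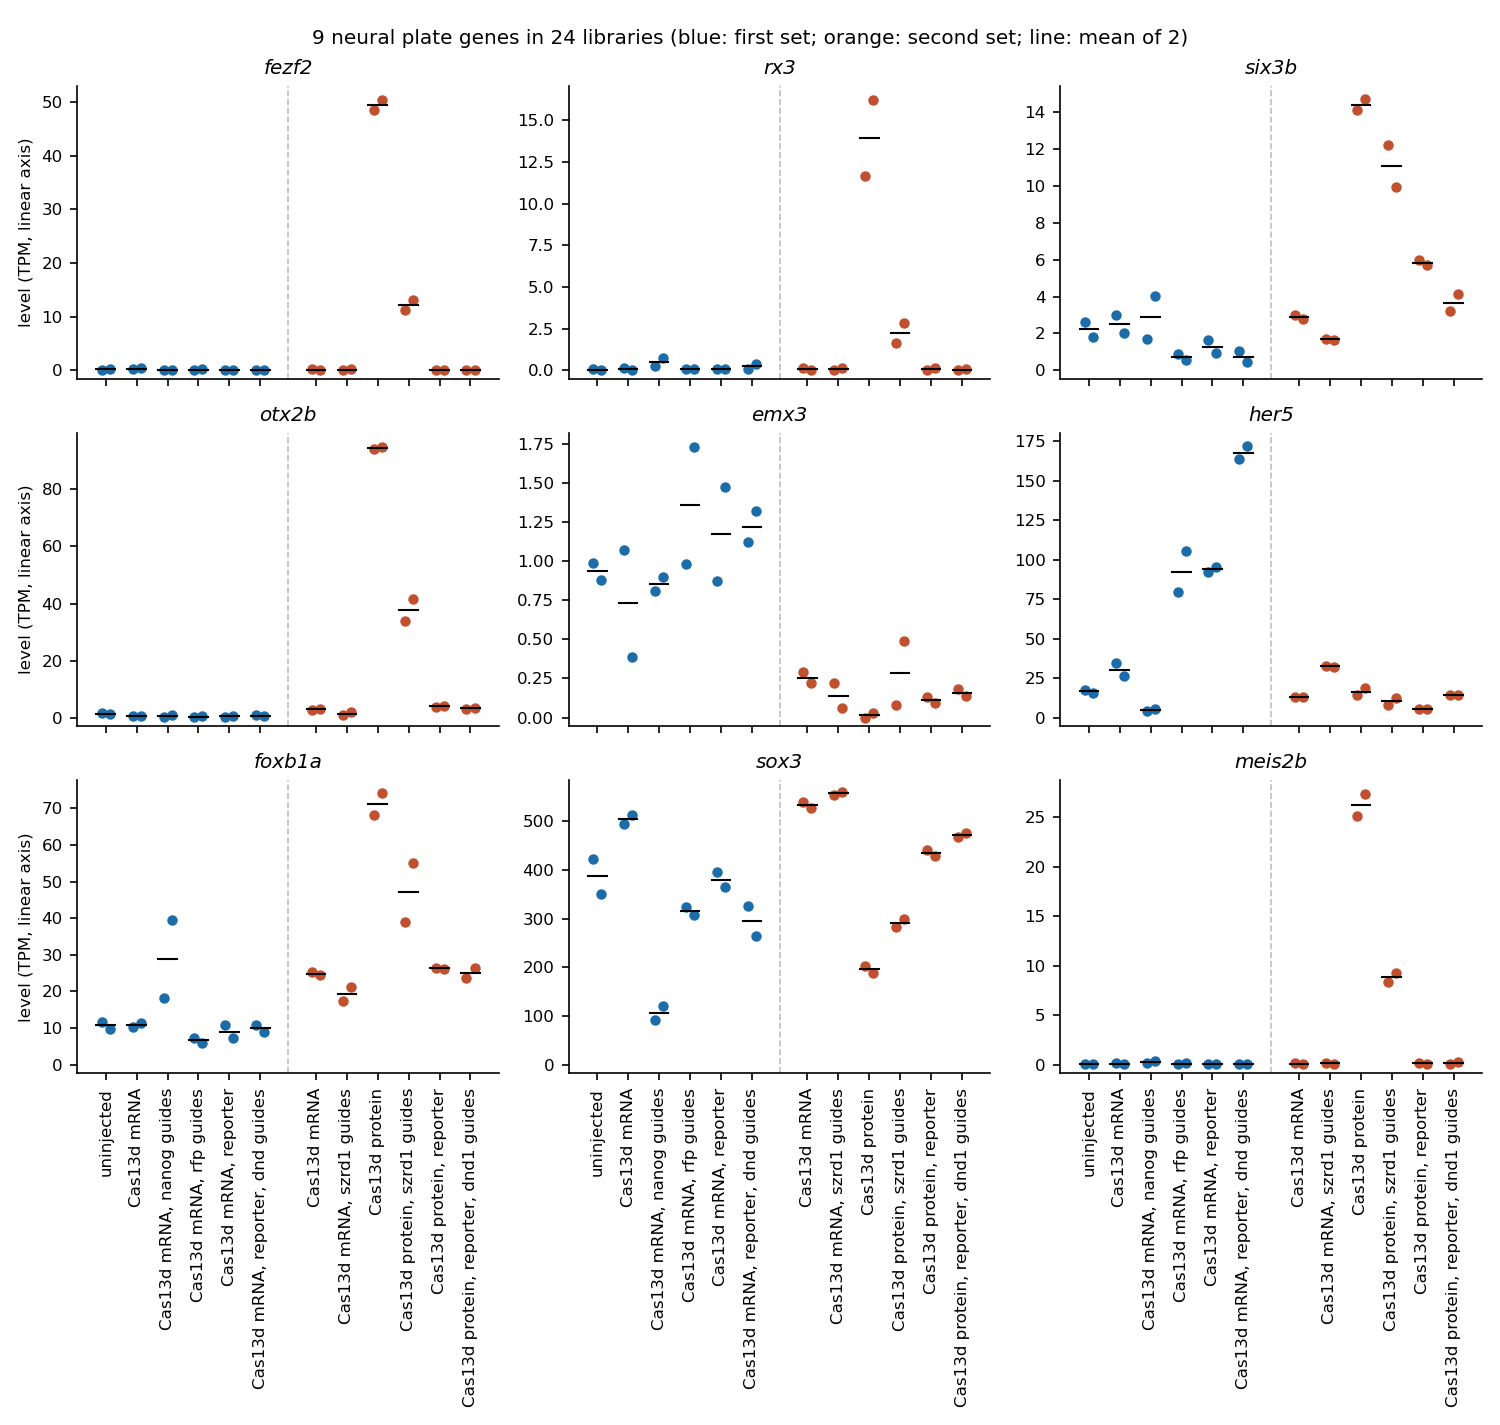
Level of each of the 9 genes in TPM (linear axis, one scale per gene) in the 24 libraries, with points for libraries, lines for group means, and the first set to the left of the dashed line. fezf2, rx3 and meis2b reach 1.65 TPM or more in the 4 libraries that received Cas13d protein without the reporter, and at most 0.77 TPM in the other 20.

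The first set was tested with limma on log2(TPM + 1), over 15253 genes with a mean of at least 1 TPM. A gene was called when its p-value adjusted over all those genes was under 0.05 and its log2 fold change was at least 1 in either direction. Of the 9 genes, 5 passed the filter on mean level: her5, sox3, foxb1a, six3b and emx3, the last barely, at a mean of 1.04 TPM. The other 4 were too low to be tested there. The number of comparisons was 6, and several share the libraries with Cas13d mRNA alone as their control.

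Cas13d mRNA without guides was compared with no injection. No group was injected without Cas13d, so effects of the nuclease and of the injection itself cannot be told apart. The level of her5 was 17.5 and 15.7 TPM in uninjected embryos and 34.6 and 26.2 TPM with Cas13d mRNA. Both injected libraries were above both uninjected ones, but the log2 fold change of 0.82 ± 0.19 (SE, n = 2 and 2) had a limma adjusted p of 0.199. For sox3 the values were 422 and 351 TPM without injection and 495 and 513 TPM with Cas13d mRNA, a log2 fold change of 0.39 with a limma adjusted p of 0.343. None of the 5 tested genes was called, in a comparison that called 0.00656% of all genes. At an unadjusted p under 0.05 limma counted 2 of the 5, her5 and sox3, beside 2044 of all 15253 genes tested. For these 2, both injected libraries also lay above the uninjected ones, as they did for 37.7% of all genes. The 3 others overlapped and had log2 fold changes between -0.19 and 0.13.

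Guides against nanog, the maternal homeobox gene that helps to activate the embryonic genome, moved 3 of these genes past the threshold. The level of sox3 was 495 and 513 TPM with Cas13d mRNA alone and 92.1 and 121 TPM with nanog guides. It fell by 2.24 on the log2 scale (SE 0.17, limma adjusted p = 3.71e-06), to 21.2% of its control. The level of her5 fell from 34.6 and 26.2 TPM to 4.21 and 5.27 TPM, or by 2.45 on the log2 scale (SE 0.19, limma adjusted p = 5.64e-06). Neither gene's groups overlapped, as for 22.2% of all genes in that direction. The gene foxb1a went the other way, from 10.2 and 11.4 TPM to 18.3 and 39.6 TPM, and rose by 1.25 on the log2 scale (SE 0.30, limma adjusted p = 0.0251). Its groups were apart as well, as for 19.5% of all genes in the higher direction.

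The rise of foxb1a rested largely on 1 library. Without the library at 39.6 TPM its log2 fold change was 0.71 with a limma adjusted p of 0.0547, and without either control library the adjusted p was 0.106 or 0.119. The genes six3b and emx3 were not called, with log2 fold changes of 0.08 and 0.13. This comparison called 4.07% of all genes, 1.95% higher and 2.12% lower, or 297 of 621 called genes higher. That balance turned with the library left out: without replicate 1 of the nanog guides 738 of 934 called genes were higher and the median of all genes was 0.18, and without replicate 2 it was 220 of 1047 with a median of -0.28. The calls of sox3 and her5 were kept without either.

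Guides against rfp target the RFP transcript of the transgene, which zebrafish do not otherwise carry. With them her5 rose from 34.6 and 26.2 TPM to 79.6 and 105 TPM, or by 1.57 on the log2 scale (SE 0.19, limma adjusted p = 0.00123). The level of six3b was 3.0 and 2.05 TPM with Cas13d mRNA alone and 0.87 and 0.56 TPM with rfp guides. It was called lower at -1.03 on the log2 scale (SE 0.32, limma adjusted p = 0.0482), and the call was lost without any 1 of the 4 libraries, where the adjusted p was 0.0974 to 0.228. For sox3 the rfp guides gave 325 and 307 TPM, below both control libraries, and its log2 fold change of -0.67 had a limma adjusted p of 0.0234 without reaching the fold limit. In all, 5.99% of genes were called, 2.16% higher and 3.83% lower, or 913 genes with the filter on low values and 221 without it. Both replicates lay above the control for 30.3% of genes and below it for 39.2%, and of the 5 genes her5 was among the first and sox3, foxb1a and six3b among the second.

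Set directly against the rfp guides, the nanog guides left her5 lower, at -4.02 on the log2 scale (SE 0.19, limma adjusted p = 2.73e-08), from 79.6 and 105 TPM to 4.21 and 5.27 TPM. In that comparison sox3 was lower too, at -1.57 (SE 0.17, limma adjusted p = 6.36e-05). The gene foxb1a was higher, at 18.3 and 39.6 TPM against 7.4 and 5.96 TPM, or by 1.87 on the log2 scale (SE 0.30, limma adjusted p = 0.00225). For six3b the values were 1.7 and 4.04 TPM against 0.87 and 0.56 TPM, a log2 fold change of 1.11 with a limma adjusted p of 0.0608. This comparison called 3.84% of all genes, 2.06% higher and 1.78% lower, and of the genes described here it called her5, sox3 and foxb1a. Groups were apart for all 5 tested genes, with six3b and foxb1a higher, as for 17.3% of all genes in the higher and 18.9% in the lower direction.

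Adding the reporter to Cas13d mRNA changed 1 of the tested genes. The level of her5 rose to 92.3 and 95.2 TPM from 34.6 and 26.2 TPM, or by 1.61 on the log2 scale (SE 0.19, limma adjusted p = 0.00589). Without 1 of the reporter libraries the log2 fold change was 1.58 and the adjusted p 0.0625. For sox3 the reporter libraries held 395 and 366 TPM, with a limma adjusted p of 0.235. Of all genes, 0.839% were called, 0.642% higher and 0.197% lower, 43.3% had both reporter libraries above the control, and the median over all genes was itself shifted by 0.13 on the log2 scale.

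With dnd guides beside the reporter, her5 reached 164 and 172 TPM, its highest level in the series. Both libraries were above the reporter libraries, as for 20.5% of all genes, but in a comparison that called 0.0262% of all genes (0.0197% higher) the log2 fold change of 0.83 ± 0.19 (SE) had a limma adjusted p of 0.417. For sox3 the values were 325 and 264 TPM, below the reporter libraries as for 18.1% of all genes, with a log2 fold change of -0.37 and a limma adjusted p of 1. None of the 5 genes was called. The unadjusted limma p was under 0.05 for her5 and sox3, and for 474 of all 15253 genes tested.

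**Figure D2:**
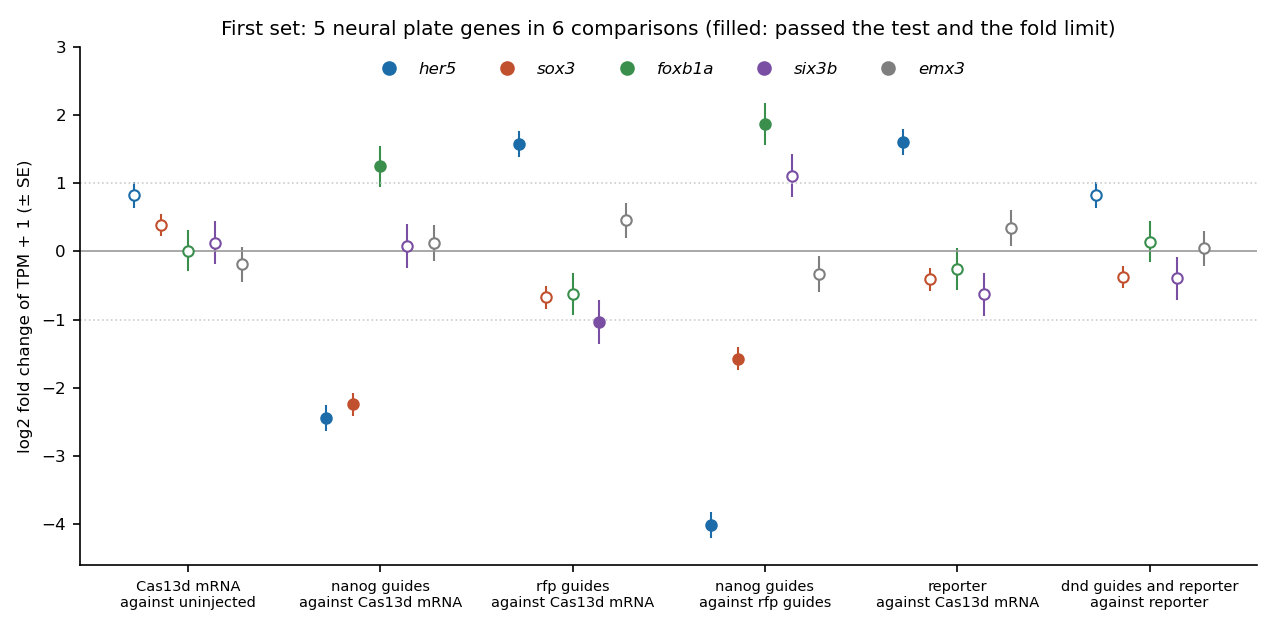
Log2 fold change of TPM + 1 with its standard error (vertical axis) for her5, sox3, foxb1a, six3b and emx3 in the 6 first-set comparisons, with filled points for called genes and dotted lines at the fold limit of 1. The points of her5 run from -4.02 to 1.61, sox3 is called only with nanog guides, and emx3 stays between -0.33 and 0.45.

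Over the first set, the levels of her5 fell in an order in which most neighbours did not overlap. The mean was 168 ± 5.72 TPM (SD, n = 2) when dnd guides were added to the reporter, 93.8 ± 2.06 TPM with the reporter and 92.4 ± 18.2 TPM with rfp guides, and the last 2 overlapped. It was 30.4 ± 5.92 TPM with Cas13d mRNA alone, 16.6 ± 1.24 TPM without injection and 4.74 ± 0.75 TPM with nanog guides. Each of these 3 groups lay apart from its neighbours in the order. For sox3 the order was Cas13d mRNA alone at 504 ± 12.8 TPM, uninjected at 387 ± 50.4 TPM, the reporter at 380.3 ± 20.8 TPM, rfp guides at 316 ± 12.3 TPM, dnd guides at 294 ± 43.4 TPM and nanog guides at 107 ± 20.6 TPM. Its uninjected and reporter groups overlapped, as did the groups with rfp and with dnd guides.

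The level of nanog, described beside her5 after the values of both had been seen, had nearly the same order over the first set. Its means were 995 TPM with dnd guides, 657 TPM with rfp guides, 607 TPM with the reporter, 289 TPM with Cas13d mRNA alone, 183 TPM without injection and 39.0 TPM with nanog guides. Only the rfp and reporter groups, which overlap in both genes, change places. In the second set both genes were at their highest with Cas13d mRNA and szrd1 guides, her5 at 32.9 and 32.0 TPM and nanog at 434 and 395 TPM. The order differed for Cas13d protein alone, where nanog was at its lowest, 8.93 and 7.25 TPM, and her5 was at 14.1 and 18.7 TPM, second of the 6 groups. Depth and RNA amount are shared by both genes within a library, and no relation between these genes was tested.

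The gene next to her5 in the zebrafish reference gene table (RefSeq) is her11, another Hairy-related repressor of the boundary between midbrain and hindbrain. Its values followed those of her5 in part. With Cas13d mRNA alone her11 was at 15.2 and 14.1 TPM. It fell to 4.42 and 5.6 TPM with nanog guides (log2 fold change -1.39 ± 0.20 SE, limma adjusted p = 8.96e-04). With rfp guides it was at 30.4 and 29.5 TPM, with a log2 fold change of 0.99 and a limma adjusted p of 0.0116, just under the fold limit. With the reporter her11 was at 16.4 and 21.1 TPM, and its log2 fold change of 0.33 (limma adjusted p = 0.416) stood beside 1.61 for her5. Whether these differ was not tested.

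**Figure D3:**
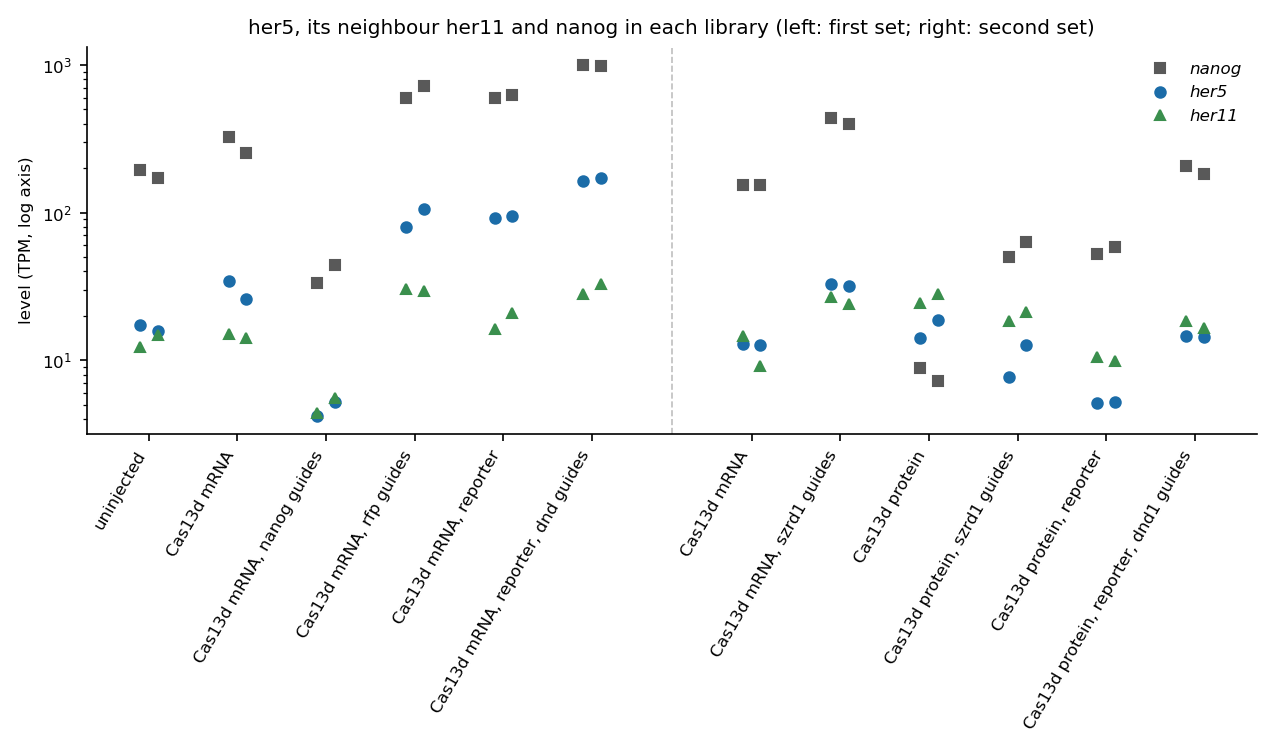
Levels of nanog, her5 and her11 in TPM (logarithmic axis) in each of the 24 libraries, grouped by injection, with the first set to the left of the dashed line. In the first set her5 and nanog are both lowest with nanog guides and highest with dnd guides, and with Cas13d protein alone nanog (8.93 and 7.25 TPM) lies below her5.

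In the second set, Cas13d protein alone gave the highest values of 6 of the 9 genes. The level of fezf2 was 48.4 and 50.4 TPM with Cas13d protein and 0.21 and 0 TPM with Cas13d mRNA, and rx3 was at 11.7 and 16.2 TPM against 0.13 and 0 TPM. The level of meis2b was 25.1 and 27.4 TPM with protein and 0.17 and 0.05 TPM with mRNA. For otx2b it was 94.1 and 95.0 TPM against 2.82 and 3.07 TPM, a ratio of 32.1. None of these groups overlapped, and the 4 genes were near 0 or low with mRNA and plainly expressed with protein.

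The remaining genes differed less between protein and mRNA. The level of six3b was 14.1 and 14.7 TPM with Cas13d protein and 2.98 and 2.76 TPM with Cas13d mRNA, a ratio of 5.02. For foxb1a it was 68.1 and 74.2 TPM against 25.4 and 24.5 TPM, a ratio of 2.86, and for her5 14.1 and 18.7 TPM against 12.97 and 12.81 TPM, a ratio of 1.27. The most abundant gene, sox3, stood on the other side, at 203 and 189 TPM with protein and 539 and 527 TPM with mRNA, or 36.8% of the mRNA level. The telencephalic gene emx3 was at 0 and 0.03 TPM with protein and 0.29 and 0.22 TPM with mRNA. Groups did not overlap for any of the 9 genes, and over all genes both protein libraries lay above the mRNA libraries for 42.4% and below them for 35.4%.

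On the log2(TPM + 1) scale these differences were 5.52 for fezf2, 4.62 for meis2b, 4.60 for otx2b, 3.80 for rx3, 1.99 for six3b, 1.48 for foxb1a, 0.31 for her5 and -1.44 for sox3. They are values that led to the choice of some of these genes, and 21.9% of the 14716 genes tested in the second set were called in this comparison, 11.1% higher and 10.8% lower. Of the 9 genes, 8 had a mean of at least 1 TPM over the second set, and fezf2, rx3 and meis2b reached it only through the 4 libraries that received Cas13d protein without the reporter.

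Adding the szrd1 guides to Cas13d protein gave lower values of 7 of the 8 genes that reached 1 TPM and a higher value of sox3. The level of rx3 was 1.65 and 2.82 TPM with the guides, 16.0% of its mean with protein alone. That of fezf2 was 11.3 and 13.1 TPM, or 24.6%, and that of meis2b was 8.4 and 9.29 TPM, or 33.7%. The level of otx2b was 33.7 and 41.6 TPM, or 39.8%. These 4 genes stood lowest relative to protein alone, yet each was above the 8 libraries outside these 2 groups, where fezf2, rx3 and meis2b were at most 0.27 TPM and otx2b at most 4.01 TPM.

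For her5 the level was 7.77 and 12.7 TPM, 62.4% of that with protein alone, for foxb1a 39.1 and 55.1 TPM or 66.2%, and for six3b 12.2 and 9.93 TPM or 77.0%. The level of sox3 was 283 and 300 TPM with the guides, 149% of the level with protein alone. Groups did not overlap for any of these 8 genes. Of all genes, 2.93% were called in this comparison, 2.55% higher and 0.381% lower, and 31% and 27.2% had both replicates above or below those of the control.

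**Figure D4:**
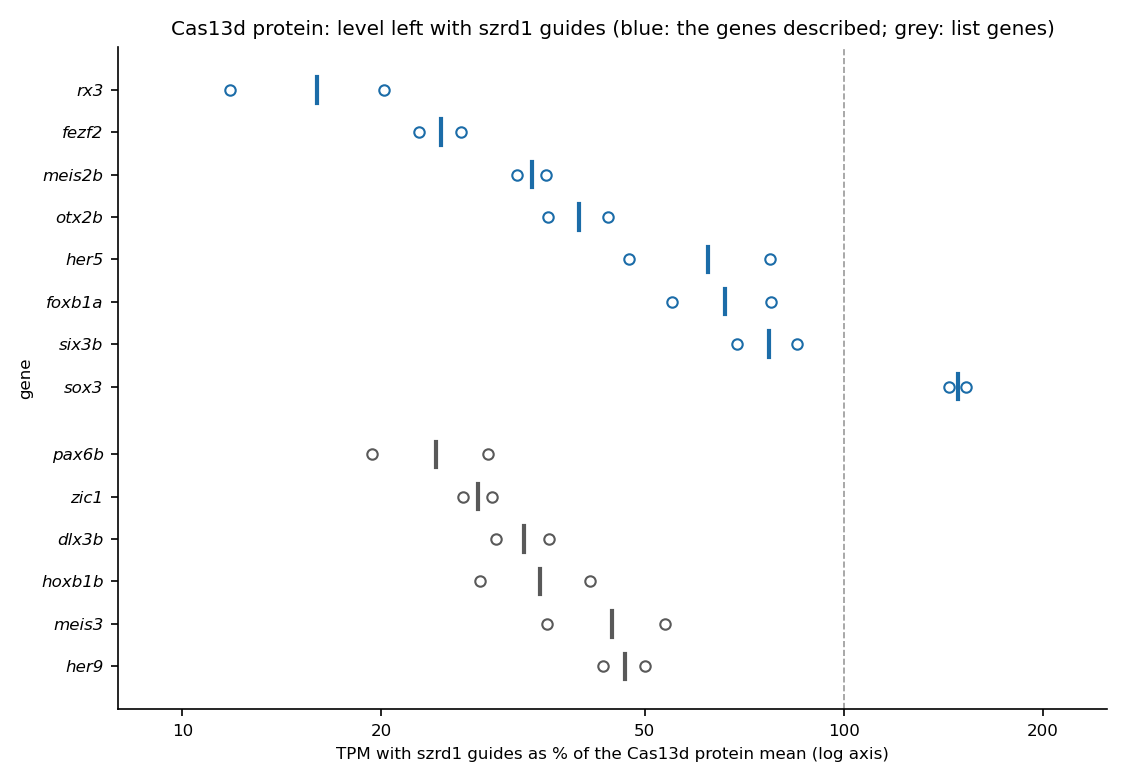
Level with Cas13d protein and szrd1 guides as a percentage of the mean with Cas13d protein alone (logarithmic axis) for 8 of the 9 genes (blue) and for 6 genes of the neural lists (grey), with circles for the 2 libraries and bars for their mean. Of the grey genes, zic1, pax6b and hoxb1b passed the filter only through libraries with Cas13d protein and are shown without a test. Values run from 16.0% for rx3 to 77.0% for six3b, with sox3 at 149% to the right of the dashed line at 100%.

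The same guides with Cas13d mRNA gave a different picture. The level of her5 was 32.9 and 32.0 TPM against 12.97 and 12.81 TPM without guides, a log2 difference of 1.27, and the groups did not overlap. The level of six3b was 1.71 and 1.66 TPM against 2.98 and 2.76 TPM, otx2b was at 0.78 and 1.92 TPM against 2.82 and 3.07 TPM, and foxb1a was at 17.4 and 21.1 TPM against 25.4 and 24.5 TPM. Those 3 genes were lower in both libraries. The level of sox3 was 555 and 561 TPM against 539 and 527 TPM, a log2 difference of 0.07 that was 0.00 under median-of-ratios scaling. The 3 genes fezf2, rx3 and meis2b were at 0 to 0.22 TPM in all 4 libraries. In this comparison 0.924% of all genes were called, 0.537% higher and 0.387% lower, and 26.4% and 15.9% had both replicates above or below those of the control.

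The 4 libraries with Cas13d protein and the reporter held levels of most of the 9 genes nearer to those with Cas13d mRNA than to those with the protein alone. With the reporter alone, fezf2 was at 0 TPM in both libraries, rx3 at 0 and 0.14 TPM and meis2b at 0.22 and 0.12 TPM. The level of otx2b was 3.81 and 4.01 TPM, foxb1a was at 26.5 and 26.2 TPM and sox3 at 441 and 429 TPM, below the 539 and 527 TPM of Cas13d mRNA. The level of six3b was 6.0 and 5.69 TPM, between that with mRNA and that with protein alone. The level of her5, 5.17 and 5.22 TPM, was its lowest in the second set and below that with either mRNA or protein alone. Against Cas13d protein alone, 17.6% of all genes were called, 8.28% higher and 9.28% lower, and against Cas13d mRNA 1.64%, 0.51% higher and 1.13% lower. The 2 protein controls differ in the reporter, and whether they were injected on the same day is not stated in the labels.

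With dnd1 guides beside Cas13d protein and the reporter, her5 was at 14.6 and 14.5 TPM, against 5.17 and 5.22 TPM without the guides. The groups did not overlap, and the log2 difference was 1.33, in a comparison that called 0.408% of all genes, 0.387% higher and 0.0204% lower, and in which 36.4% of genes had both replicates above those of the control and 17.7% below. The level of six3b was lower, at 3.23 and 4.12 TPM against 6.0 and 5.69 TPM, and sox3 was at 467 and 477 TPM against 441 and 429 TPM. The level of otx2b was 2.99 and 3.48 TPM, and foxb1a overlapped at 23.8 and 26.4 TPM. The 3 genes fezf2, rx3 and meis2b remained at or under 0.27 TPM. Thus her5 was above its control in both libraries with dnd, rfp or szrd1 guides and mRNA, and with dnd1 guides and protein. It was below its control in both libraries with szrd1 guides and protein, and with nanog guides and mRNA.

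Other genes of the neural plate were examined as a panel of 4 lists of regional genes: forebrain and eye, midbrain and its boundary, pan-neural, and hindbrain and posterior. The lists were written from general knowledge, with earlier results of these data known, and leave out the 9 genes. In the first set 34 panel genes were tested. With nanog guides 2 were called higher and 7 lower, in a comparison that called 1.95% of all genes higher and 2.12% lower. The forebrain and eye list had 1 gene higher and 0 lower, and the hindbrain and posterior list had 1 higher and 3 lower. The midbrain and pan-neural lists each had 0 higher and 2 lower. The boundary gene her11 was lower. So was irx1b, an Iroquois homeobox gene, at 3.83 TPM with nanog guides against 8.62 TPM with Cas13d mRNA alone. The SoxB1 gene sox19a fell by 1.16 on the log2 scale (limma adjusted p = 0.00112), and sox11b, a SoxC gene, was lower too (-1.20, limma adjusted p = 0.00284). The posterior genes eve1 and cyp26a1 were also lower: eve1 (-1.08, limma adjusted p = 0.0126) and cyp26a1 (-1.01, limma adjusted p = 0.00707), which encodes an enzyme that degrades retinoic acid. The panel median was -0.12, beside -0.05 for all genes. In the pan-neural list, 8 of the 12 tested genes had a log2 fold change above 0, and the list median was 0.16. Both libraries with nanog guides lay above the control for 5 of those 12 and below it for 3, beside 19.5% and 22.2% of all genes.

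With rfp guides 5.99% of all genes were called, 2.16% higher and 3.83% lower. Of the 34 panel genes 2 were called there, both lower: sox2, a SoxB1 gene, at 23.5 TPM against 50.9 TPM, and the posterior homeobox gene cdx4, at 26.1 TPM against 61.6 TPM. That count ran from 0 to 5 when single libraries were left out. Against rfp guides directly, nanog guides gave 4 panel genes higher, among them sox2 and cdx4, and 3 lower, among them her11 and sox11b. Of all genes, 2.06% were called higher and 1.78% lower there. No panel gene was called with Cas13d mRNA against no injection, with the reporter or with dnd guides. At an unadjusted p under 0.05, limma counted 3, 5 and 6 of the 34 panel genes in those 3 comparisons, and 2044, 2671 and 474 of all genes.

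In the second set 40 panel genes were tested. With Cas13d protein against Cas13d mRNA 25 were called higher and 2 lower, in a comparison that called 11.1% of all genes higher and 10.8% lower. The panel median was 1.17 beside 0.06 for all genes. Of the forebrain and eye list 10 of 13 were higher, led by dlx3b, a homeobox gene of the border of the neural plate (2.15 to 121 TPM), zic1, a zinc finger gene of dorsal neural tissue (0.415 to 20.4 TPM), and six7, a relative of six3b (1.89 to 41.2 TPM). The midbrain and boundary list had 5 of 6 higher, with irx7 at 229 TPM against 95.6 TPM. The hindbrain and posterior list had 5 of 7 higher, among them hoxb1b, a Hox gene of the hindbrain, at 86.2 TPM against 0.105 TPM. In the 8 second-set libraries outside Cas13d protein alone or with its szrd1 guides, zic1 averaged 0.46 TPM and hoxb1b 0.22 TPM. Also under 1 TPM there were six3a (0.67 TPM), pax6b (0.39 TPM) and dmbx1a (0.43 TPM) of the forebrain and eye list, and the pan-neural gene meis1b (0.35 TPM). Such genes entered the test only through libraries with Cas13d protein, so their values, and the counts that include them, are descriptions. High values with Cas13d protein were thus also found in genes of the hindbrain. The 2 lower genes were sox11a and sox11b. Among the 34 panel genes that also reached a mean of 1 TPM in the 8 libraries of the other second-set groups, 19 were higher and 2 lower.

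Adding szrd1 guides to Cas13d protein left 8 of the 40 panel genes called lower and none higher, beside 0.381% lower and 2.55% higher over all genes. Of these 8, the genes zic1, pax6b, hoxb1b and dmbx1a averaged under 1 TPM in the 8 other second-set libraries and entered the test only through libraries with Cas13d protein, so their values are given without a test. They were at 5.69 TPM against 20.4 TPM for zic1, 2.13 TPM against 8.82 TPM for pax6b, a paired homeobox gene of eye and brain, 30.0 TPM against 86.2 TPM for hoxb1b and 1.38 TPM against 4.26 TPM for dmbx1a. Among the 34 panel genes that averaged 1 TPM in those 8 libraries, 4 fell: dlx3b (-1.59 on the log2 scale, limma adjusted p = 0.00747), six7 (-1.37, limma adjusted p = 0.00156), meis3 (-1.12, limma adjusted p = 0.0196) and her9 (-1.08, limma adjusted p = 0.00855). With szrd1 guides and Cas13d mRNA, 0.537% of all genes were called higher and 0.387% lower. Of the 40 panel genes 1 was higher there, her11 (1.06, limma adjusted p = 0.0135), and 5 were lower, among them cdx4 and the Hairy-related gene her3. A fit of those 4 libraries alone called 0 of all genes, so it cannot show whether these 6 calls hold. No panel gene was called with dnd1 guides, or between Cas13d protein with the reporter and Cas13d mRNA, where limma counted 11 and 4 of the 40 panel genes at an unadjusted p under 0.05, and 1840 and 4273 of all genes.

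The closest relatives of the 9 genes were looked up by family, after values had been seen. Of 20 such relatives, 12 passed the filter in the second set. All 12 are also among the 40 genes of the regional neural lists tested there. Their calls are therefore part of the counts given for those lists and add no separate evidence. With Cas13d protein against Cas13d mRNA, 8 of the 12 were called higher and none lower. That comparison called 11.1% of all genes higher and 10.8% lower. Without meis1b and six3a, which averaged under 1 TPM in the 8 other libraries, the count of relatives called higher was 6 of 10. Beside otx2b, otx2a was at 157 TPM against 47.3 TPM (log2 fold change 1.72 ± 0.13 SE, limma adjusted p = 4.22e-06) and otx1 at 164 TPM against 23.2 TPM (2.77 ± 0.13 SE, limma adjusted p = 3.01e-07). Both were expressed in all 24 libraries, at 13.2 TPM or more, whereas otx2b was at most 4.01 TPM in the 20 libraries outside Cas13d protein without the reporter. Beside meis2b, meis1b was at 27.4 TPM against 0.34 TPM, and meis3 was called at 28.0 TPM against 0.98 TPM, whereas meis2a was at most 0.39 TPM throughout. Beside six3b, six3a was at 3.96 TPM against 0.5 TPM.

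The relatives of rx3, fezf2 and emx3 stayed low. The retinal genes rx1 and rx2 were at most 0.33 and 0.11 TPM and fezf1 at most 0.04 TPM in any library, and emx1 and emx2 at most 0.83 and 2.3 TPM. Among SoxB1 genes, sox19a was lower with Cas13d protein like sox3, at 374 TPM against 550 TPM, with a log2 fold change of -0.55 (limma adjusted p = 1.96e-05) that did not reach the fold limit. In contrast, sox19b was at 65.1 TPM against 34.5 TPM, and sox2 was at 90.4 TPM against 98.7 TPM with a limma adjusted p of 0.261. With nanog guides sox19a fell together with sox3, while sox2 was at 78.8 TPM against 50.9 TPM (limma adjusted p = 0.192) and sox19b at 66.0 TPM against 37.8 TPM (log2 fold change 0.74, limma adjusted p = 0.0475).

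Signals and other tissues differed in the same libraries, and their part in the results above was not tested. A list of 14 genes of the oocyte and early embryo summed to 649 to 662 TPM with Cas13d protein alone, 931 to 948 TPM with szrd1 guides, and 1344 to 1829 TPM in the other 8 second-set libraries. None of its genes was at 0 in any library. With Cas13d protein against mRNA 11 of the 12 tested genes of that list were called lower, beside 10.8% of all genes. With szrd1 guides and protein 8 of 12 were higher, beside 2.55% of all genes. The first-set sums of the list were 2331 to 3699 TPM. There 7 of 14 genes were higher with rfp guides, beside 2.16% of all genes. With nanog guides 5 were higher and 1 lower (nanog), beside 1.95% and 2.12% of all genes.

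Among 14 genes of mesoderm and endoderm, mixl1, an early mesendoderm gene, was at 4.36 TPM with Cas13d protein against 76.1 TPM with mRNA, and tbx6, a gene of the paraxial mesoderm, at 42.8 TPM against 0.68 TPM. None of the 14 was at 0 in any library. In the list of signals, frzb, which encodes a Wnt antagonist, was at 57.6 TPM against 10.8 TPM and fgf3 at 3.62 TPM against 22.0 TPM. Between Cas13d protein and mRNA, 4 of the 14 mesoderm and endoderm genes were called higher and 3 lower. Of 15 tested signals, 7 were called higher and 3 lower, beside 11.1% and 10.8% of all genes. Whether tbx6 or other genes of the mesoderm, endoderm and signal lists would pass the filter without the Cas13d protein libraries was not examined. The counts of these lists between protein and mRNA are therefore descriptions. With nanog guides the BMP-related genes szl (48.7 to 6.83 TPM), bmp4 (22.2 to 9.61 TPM) and the ventral repressors vent, ved and vox fell. The gene foxa2, of axial mesoderm and endoderm, rose from 8.1 to 38.9 TPM (limma adjusted p = 6.68e-05). It was the 1 gene called higher of 13 tested in its list, where 2 were called lower. Of 14 tested signals 0 were called higher and 3 lower, and of 12 tested non-neural ectoderm genes 0 and 5. Over all genes 1.95% were called higher and 2.12% lower there. A list of 13 non-neural ectoderm genes summed to 9949 to 10017 TPM with Cas13d protein alone, 7509 to 8100 TPM with szrd1 guides and protein, 6376 to 8293 TPM in the other 8 second-set libraries and 5214 to 8698 TPM in the first set. None of these genes was at 0 in any library. With Cas13d protein against mRNA, 9 of the 13 had both replicates above the control and 3 below, beside 42.4% and 35.4% of all genes. Called higher were 2 of the 13 and lower 1, beside 11.1% and 10.8% of all genes.

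For each of the 9 genes the most similar genes were listed by Pearson correlation of log2(TPM + 1) over the 24 libraries, centred within each set, among 9199 genes at 5 TPM or more on average in both sets. The libraries share depth and group, and no p is given. The best match of fezf2 and of meis2b was baz2ba (r = 0.97 for both), with caska next for both genes (r = 0.97). For rx3 it was otx1 (r = 0.93) and then caska (r = 0.92), and for otx2b sh3gl1a and baz2ba (both r = 0.97). Outside the 4 libraries with Cas13d protein alone or with szrd1 guides, fezf2, rx3 and meis2b were at most 0.77 TPM and otx2b at most 4.01 TPM. The r of these genes therefore rests largely on those 4 libraries, whose values had a part in the choice of some genes. The best match of six3b was crtap (r = 0.95), followed by sfrp1a (r = 0.94), which encodes a secreted Wnt modulator. The gene foxb1a was nearest to foxa2 (r = 0.95) and dnmt3bb.1 (r = 0.94). With a pattern unlike these, her5 was nearest to mgat1b (r = 0.94) and lratb.1 (r = 0.93), and sox3 to polr3gla and itga5 (both r = 0.95). In the second set, six3b and foxb1a were higher and sox3 lower in the same 4 libraries than in any of the 8 others. The r of these genes therefore rests in part on those libraries too. For emx3, at most 1.73 TPM in any library, the best matches reached an r of only 0.64 (brf2 and n4bp1).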

How the data were processed

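The authors deposited 1 table of RSEM TPM values for 24 libraries. Per the labels' protocols, total RNA was taken up in Trizol, and poly(A)-enriched stranded libraries were sequenced as single reads of 75 bp. Per the submitters' processing notes, bcl2fastq 2.18, STAR 2.6.1c, RSEM and the build danRer11 were used. Filters and strand use of the counting are not given in the sources used here, so overlapping genes and close paralogs are uncertain. TPM keeps no sequencing depth, so the depth per library is unknown, and no counting interval or floor is given. Columns were matched to samples by title and none was left over.

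The 2 sets were fitted apart, because set and group cannot be told apart. Within each set of 12 libraries, genes averaging 1 TPM or more were analysed as log2(TPM + 1), so fold changes understate low genes. The model was limma 3.58.1 in R 4.3.3 (eBayes with trend), with 1 term per group, 6 residual degrees of freedom, two-sided tests and Benjamini-Hochberg adjustment over all genes. It was tested on simulated data. Called means an adjusted p under 0.05 with a log2 fold change of 1 or more in either direction.

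The 9 genes and all lists were chosen with earlier results of these data known. Named from the lists are called genes, at most 3 per list and comparison with the largest changes and a mean of at least 5 TPM; the targeted genes and the 2 genes most like each of the 9 are also named. sox11a, dmbx1a and the family relatives were named after their values were seen. Alternatives were a pseudocount of 0.1, no filter, quantile normalization, median-of-ratios scaling, fitting the compared groups alone, the replicate number as a block, and leaving out each replicate. Counts of panel genes and relatives expressed outside the Cas13d protein libraries were added after seeing the data. Replicates held at most 0.368% identical values and counted as 2 samples. Sequences and coordinates were not used here. The gene name table held 29201 of the 32521 row identifiers, including all 9 genes.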

Additional observations from a re-analysis of the deposited data

Results flagged for a closer look

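In 3 cases both replicates of a gene lay above the control under one form of Cas13d and both below it under the other, with guides against the same target. None of these differences between the forms was tested, and the share of all genes that did the same was not counted. With szrd1 guides both replicates lay above the control for 26.4% of all genes and below it for 15.9% with Cas13d mRNA. With Cas13d protein these shares were 31% and 27.2%. With dnd guides and the reporter they were 20.5% and 18.1% with mRNA, and 36.4% and 17.7% with protein. With szrd1 guides, her5 differed from its control by 1.27 on the log2 scale with Cas13d mRNA and by -0.65 with Cas13d protein, so that the effect with protein minus that with mRNA was -1.92. With dnd guides and the reporter, sox3 differed by -0.37 with Cas13d mRNA in the first set and by 0.12 with Cas13d protein in the second, a gap of 0.49. With the same guides otx2b, low in all 8 libraries, differed by 0.26 with mRNA and by -0.22 with protein, a gap of -0.47. The pairs with dnd guides set libraries of different sets side by side, and the 0.12 of sox3 was 0.03 under median-of-ratios scaling.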

How the results depend on the processing

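No called change of the 9 genes turned its direction under any alternative run. The numbers of the 9 genes called kept to within 1.5 times under every alternative, except as follows. With rfp guides the 2 called genes (her5 and six3b) became 1, her5, without the filter on low values, with the replicate block and without any 1 replicate (1 to 1). Without 1 replicate in turn the number was 2 to 3 with nanog guides, 3 to 4 with nanog against rfp guides, and 0 to 1 with the reporter, where her5 was lost without replicate 2 of the reporter group. The call of foxb1a with nanog guides was also lost without the filter (adjusted p = 0.0873). In the comparison of nanog with rfp guides six3b was gained under median-of-ratios scaling (adjusted p = 0.0243), in a fit of those groups alone (0.0484) and without replicate 1 of the nanog guides (0.0122).

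Panel genes called with nanog guides went from 9 to 5 under quantile normalization and were 5 to 10 without 1 replicate. With rfp guides the 2 became 0 without the filter, 1 with only the groups compared and 0 to 5 without 1 replicate. With szrd1 guides and mRNA the 6 became 0 with only the groups compared, in a fit that called 0 of all genes, and 3 to 6 without 1 replicate. With szrd1 guides and protein the 8 became 5 with a pseudocount of 0.1, 4 among genes expressed in the 8 other libraries, and 5 to 10 without 1 replicate. The other leave-one-out ranges were 6 to 10 for nanog against rfp guides, 25 to 27 for Cas13d protein against mRNA and 24 to 26 for the reporter with protein against protein alone. The cause of these shifts was not tested, beyond the smaller number of libraries or genes in a fit.

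Over all genes, calls moved by more than 1.5 times in several comparisons under settings that keep both replicates of the compared groups. These settings include a fit of the compared groups alone. The comparisons were the reporter with mRNA (128, from 12 to 183), rfp guides (913, from 221 to 1212) and szrd1 guides with mRNA (136, from 0 to 185). Others were szrd1 guides with protein (431, up to 647) and the reporter with protein against mRNA (241, from 140 to 373). The last were Cas13d mRNA against no injection (1, from 0 to 4) and dnd guides with mRNA (4, from 2 to 10). The fit of the compared groups alone gave the 0, the 140, the 4 and the 10 that end the ranges from 0 to 185, 140 to 373, 0 to 4 and 2 to 10. Without it, szrd1 guides with mRNA ran from 117 to 185. Leaving out 1 library moved calls further, to 5 to 34 for the reporter with mRNA, 45 to 1256 for rfp guides, 255 to 1047 for nanog guides (621), 384 to 1328 for nanog against rfp guides (585), 13 to 25 for dnd1 guides with protein (60), 281 to 545 for szrd1 guides with protein, 86 to 337 for the reporter with protein against mRNA and 0 to 8 for Cas13d mRNA against no injection. Replicate numbers did not pair the samples: deviations of same-numbered libraries correlated at -0.28 to 0.23 in the first set and -0.08 to 0.15 in the second, and the replicate block changed no other call of the 9 genes. With 2 libraries per group and unknown depth, values under about 1 TPM and small differences cannot be resolved.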
